A study of Homo sapiens with 4 samples.

Results

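The genes described here encode subunits of INO80, SRCAP and TIP60, 3 chromatin complexes that contain Pontin, together with the histone H2A.Z that they place, remove or acetylate. They are 32 genes, fixed as a list by name, out of 19775 genes with a probe set of their own, and 30 of them are subunit genes and 2 are H2A.Z genes. Each gene was read on its brightest probe set, chosen by its log2 signal averaged over the 4 arrays. RNA came from SK-BR-3, a long-established line of human breast carcinoma cells that carry amplified HER2 and a missense-mutant p53, and was hybridized to 1 Affymetrix array per group. The groups were p53 shRNA with Pontin siRNA, Pontin siRNA with control shRNA, p53 shRNA, and control shRNA, the labels naming the last vector both as a control shRNA and as empty. Per the labels' protocols the shRNA cells were selected with puromycin, and cells were collected 24 h after the siRNA step. The arms without Pontin siRNA are titled sicon, a term that the labels do not spell out, and the labels do not say how many clones or separate selections the shRNA cells represent. The selection was thus shared by all 4 groups, the controls included.

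Pontin, encoded by RUVBL1, and its partner Reptin, encoded by RUVBL2, are AAA+ ATPases that form a ring and act as an assembly scaffold in all 3 complexes. SRCAP and the EP400 subunit of TIP60 exchange canonical H2A for H2A.Z in nucleosomes near promoters, INO80 slides nucleosomes and has been reported to act on H2A.Z nucleosomes, and the KAT5 subunit of TIP60 acetylates histones H4 and H2A and H2A.Z. H2A.Z marks nucleosomes beside active start sites, and in breast cancer cells it is known at hormone-responsive promoters. The comparisons ask whether transcripts of the complexes that hold Pontin followed its siRNA or the p53 shRNA.

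Promoter windows from RefSeq (GRCh38.p14), from 250 bases before to 50 after the annotated start, were matched for 28 of the 32 genes, in 33 windows. Those of YEATS4 and EPC2 are shown because these were the members with the lowest ratios after Pontin siRNA, and those of H2AZ1 and H2AZ2 because they encode the substrate. Capitals mark, on either strand, the core GCCATNTT of YY1 (itself an INO80 subunit that binds DNA by sequence), the CCAAT box CCAAT, the GC box GGGCGG, the TATA box TATAAA and the half-site TGCGCA of NRF1. The motifs were chosen with the sequences in view. Windows lie at chr12:69359493-69359792 on the plus strand, chr2:148644501-148644800 on the plus strand, chr4:99950226-99950525 on the minus strand and chr7:44848038-44848337 on the minus strand, each written from 5′ to 3′ on the gene's strand.
YEATS4: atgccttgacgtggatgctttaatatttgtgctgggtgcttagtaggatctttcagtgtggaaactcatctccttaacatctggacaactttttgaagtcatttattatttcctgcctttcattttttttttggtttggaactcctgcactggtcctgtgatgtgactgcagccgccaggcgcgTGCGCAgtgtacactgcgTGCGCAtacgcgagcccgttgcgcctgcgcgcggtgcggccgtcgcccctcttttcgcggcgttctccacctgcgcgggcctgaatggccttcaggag
EPC2: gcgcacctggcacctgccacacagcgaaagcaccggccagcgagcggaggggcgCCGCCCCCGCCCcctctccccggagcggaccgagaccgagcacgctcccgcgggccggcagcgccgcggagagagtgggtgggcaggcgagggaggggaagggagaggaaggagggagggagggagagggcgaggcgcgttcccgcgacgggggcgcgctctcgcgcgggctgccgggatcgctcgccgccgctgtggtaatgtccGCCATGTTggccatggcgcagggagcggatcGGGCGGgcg
H2AZ1: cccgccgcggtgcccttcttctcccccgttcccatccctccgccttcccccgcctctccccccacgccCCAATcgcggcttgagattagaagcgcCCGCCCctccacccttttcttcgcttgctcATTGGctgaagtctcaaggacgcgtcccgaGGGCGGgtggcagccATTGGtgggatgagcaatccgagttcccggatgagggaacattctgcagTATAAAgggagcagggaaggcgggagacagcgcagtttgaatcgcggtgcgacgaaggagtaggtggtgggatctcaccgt
H2AZ2: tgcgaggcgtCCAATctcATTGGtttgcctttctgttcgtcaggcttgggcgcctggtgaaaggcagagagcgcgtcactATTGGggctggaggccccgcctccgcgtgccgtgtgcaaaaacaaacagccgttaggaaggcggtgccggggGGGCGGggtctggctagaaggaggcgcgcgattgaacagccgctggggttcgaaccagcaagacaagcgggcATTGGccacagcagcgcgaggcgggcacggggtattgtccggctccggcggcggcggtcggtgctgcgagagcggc

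The YEATS4 window held 2 NRF1 half-sites and 0 matches to the other 4 motifs. The EPC2 window held 1 YY1 core and 3 GC boxes, and no marked match overlapped another in the 4 windows. Its GC content was 76.7%, against 53.7% in the YEATS4 window. Both H2A.Z genes had CCAAT boxes, 3 in H2AZ1 and 4 in H2AZ2, and the H2AZ1 window alone of the 4 had a TATA box. A YY1 core occurred in windows of 8 of the 28 genes (ACTR5, BRD8, EPC1, EPC2, INO80E, KAT5, MEAF6 and ZNHIT1), that is in 9 of 33 windows, and in 6.58% of all 35116 windows. CCAAT was found in 10 of the 33 windows and in 34.6% of all windows, GGGCGG in 20 and in 45% of all, TATAAA in 2 and in 11.5% of all, and TGCGCA in 4 and in 8.24% of all. These are letter matches, described here without a test, and nothing is drawn from them about the factors.

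The deposited values are MAS5 signals, 1 per probe set on a linear scale. Genes whose mean signal reached 15.3, the median over probe sets, were kept (12066 genes), and those at or above 110.3 are called bright (7744 genes). All 32 members were kept and 29 were bright, the exceptions being INO80B, MCRS1 and SRCAP. The array with both knockdowns stood apart from the others. Its median signal was 19.6, where the other arrays had 15.9 to 16.5, and its 18 hybridization control probe sets were on average 1.42 times as bright as on the control array, higher on all 18. Between arrays, the log2 signals of genes kept had correlations of 0.981 to 0.988. Of the luminal and HER2 markers, ERBB2 had signals of 4823 to 5581 and KRT8 of 5298 to 6438, while CDH1, at 1.8 to 13, did not reach the level for genes kept, and of 5 markers of other cells KRT5 (10.1 to 28) and PECAM1 (27.5 to 40.7) did. Of the luminal markers GATA3, a transcription factor gene, had 350.4 with both knockdowns, against 556.2 with Pontin siRNA, and 334.8 with p53 shRNA, against 650.5 with control shRNA. Both arrays with the shRNA were below both arrays without it, with log2 ratios of -0.67 in Pontin siRNA cells and -0.96 without the siRNA. Without cross-hybridizing probe set types, GATA3's mean ratio was -0.54, and it no longer reached 1.5-fold in both pairs. Expression of the p53 shRNA's target is not reported here.

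RUVBL1 had a signal of 65.8 with p53 shRNA and Pontin siRNA, against 398.2 with p53 shRNA, and of 127.4 with Pontin siRNA, against 477.7 with control shRNA. Both arrays with the siRNA were below both arrays without it. Its log2 ratio was -2.60 in p53 shRNA cells and -1.91 in control shRNA cells. RUVBL2 was at 0.08 and 0.19, and TRRAP, which encodes the large scaffold that TIP60 shares with other acetyltransferase complexes, at -0.02 and -0.16. Throughout, where log2 ratios for Pontin siRNA are given as a pair, the value in p53 shRNA cells precedes the value in control shRNA cells. A gene was called where both ratios reached 1.5-fold (0.58 in log2) in the same direction. With 1 array per group no value has a replicate error, and the call is a rule of size rather than a test. In a bulk culture, less transcript per cell and fewer cells with the transcript cannot be told apart.

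Among the 32 members, 1 was called lower and 0 higher with Pontin siRNA, and the gene called was YEATS4. Over all genes kept, 1.24% were called lower and 1.16% higher, and among bright genes 1.1% lower and 0.181% higher, so a count of 1 in 32 is close to the background. The median of the members' mean log2 ratio was -0.02, against 0.01 over all genes kept. Below 0 in both pairs were 14 members (32% of all genes kept were) and above 0 in both were 7 (33.9% of all), while 11 had a sign that differed between pairs. In 16 members both ratios lay within 0.2 of 0. In Pontin siRNA over control shRNA alone, without the array that stood apart, YEATS4 and EPC2 were at least 1.5-fold lower (3.89% of genes kept were) and MBTD1 at least 1.5-fold higher (4.25% of genes kept).

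**Figure D1:**
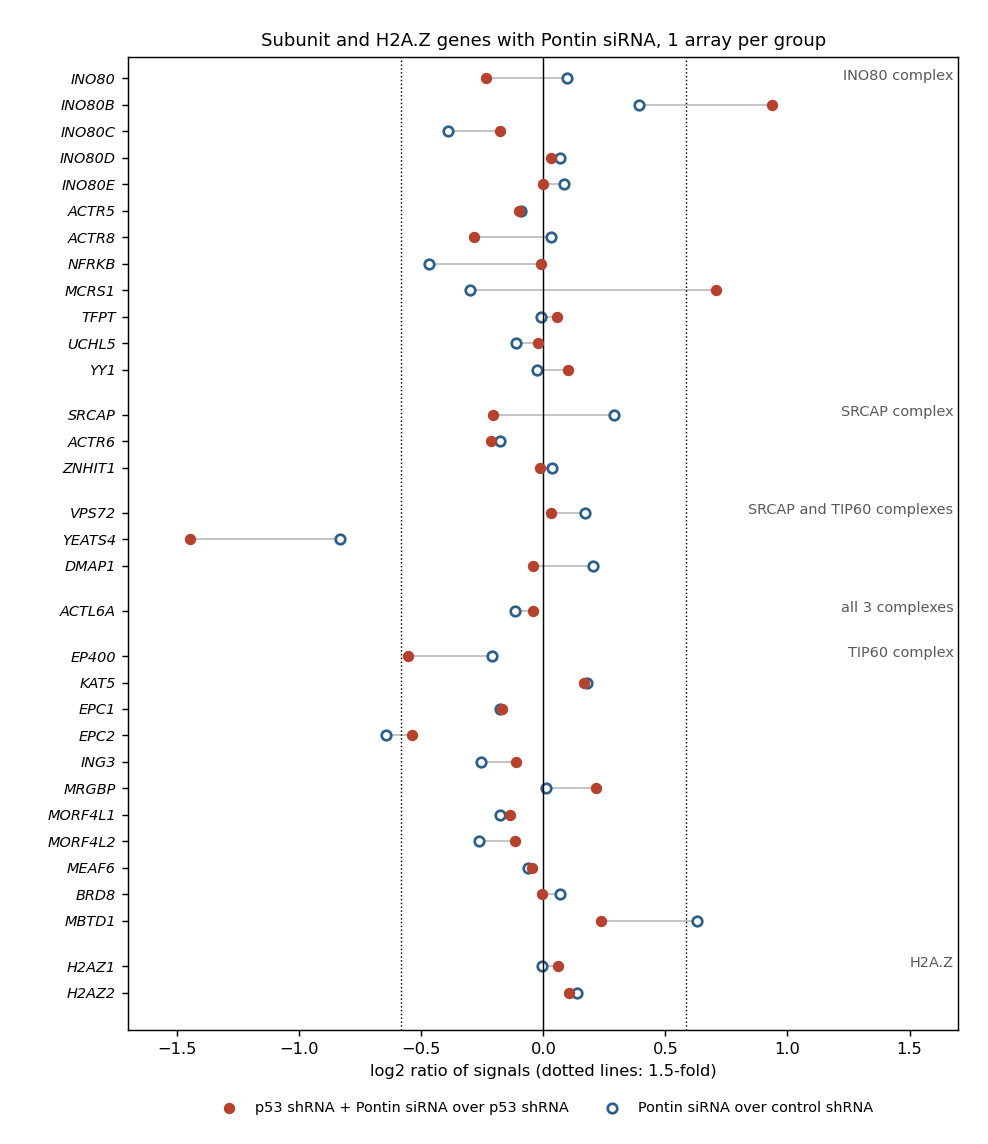
Log2 ratio of MAS5 signals with Pontin siRNA for the 32 subunit and H2A.Z genes, grouped by complex from top to bottom. Filled points are both knockdowns over p53 shRNA, open points are Pontin siRNA over control shRNA, and dotted lines mark 1.5-fold. YEATS4 alone has both points beyond the same dotted line, at -1.45 and -0.83, and 16 genes have both points within 0.2 of 0.

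YEATS4 encodes GAS41, a YEATS-domain reader of acetylated histone H3 that belongs to both SRCAP and TIP60. Its signal was 124.9 with p53 shRNA and Pontin siRNA, against 340.3 with p53 shRNA, and 183.5 with Pontin siRNA, against 327.2 with control shRNA. The arrays with the siRNA were both lower than those without it. No share of all genes kept is given for such a separation, for this gene or any other. The log2 ratios were -1.45 and -0.83, that is 2.72-fold and 1.78-fold lower. Counting YEATS4, 22 bright genes were at least that far down (-0.83) in both pairs. Only 1 single-symbol probe set reads YEATS4, so no other probe set of the gene could be set beside it. The p53 shRNA ratio of YEATS4 was -0.56 in Pontin siRNA cells and 0.06 in control shRNA cells, so the gene was lowest on the array where both were applied, and its departure from additive log2 effects was -0.61.

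The other genes of the shared SRCAP and TIP60 module had ratios nearer 0 than YEATS4. VPS72 encodes YL1, the chaperone-like subunit that binds H2A.Z and H2B, and had log2 ratios of 0.03 and 0.17. DMAP1, a SANT-domain subunit gene, was at -0.04 and 0.20, with signals of 132.4 to 158.8 over the 4 arrays. ACTL6A, which encodes the actin-related protein BAF53a held by all 3 complexes and by SWI/SNF, was at -0.04 and -0.11.

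Of the SRCAP genes, SRCAP itself, the ATPase that drives the exchange of H2A.Z, had 53.2 with both knockdowns, against 61.4 with p53 shRNA, and 49.3 with Pontin siRNA, against 40.4 with control shRNA. Its ratios had opposite signs, -0.21 and 0.29, at a signal below the bright level. ACTR6, an actin-related protein gene of the same complex, was at -0.21 and -0.18, with signals of 2098 to 2620.5. ZNHIT1, a zinc finger HIT subunit gene, was at -0.01 and 0.03.

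Of the 11 TIP60 genes not shared with the other complexes, 7 were below 0 in both pairs and 3 above, with a median of -0.16, and 0 were called. With its shared subunits TIP60 has 15 member genes, of which 9 were below 0 in both pairs, 4 were above, and 1, YEATS4, was called lower. Over all genes kept, 32% were below 0 in both pairs and 33.9% above. Of 7744 bright genes, 2812 were below and 2656 above. EP400, EPC1, MORF4L1 and MORF4L2 were counted as below on their brightest probe sets. Each also had a probe set at the level for genes kept with a mean ratio above 0. EPC2, an Enhancer of Polycomb scaffold gene, missed the call narrowly. It had 161.2 with both knockdowns, against 233.9 with p53 shRNA, and 144.9 with Pontin siRNA, against 226.7 with control shRNA, log2 ratios of -0.54 and -0.65. The 2 siRNA arrays were below the 2 others, as for YEATS4, and the gene is likewise read by 1 probe set. Its paralog EPC1 was at -0.17 and -0.18. Other EPC1 probe sets at the level for genes kept did not repeat these values. The brighter of them, itself bright, gave -0.24 and 0.23. The dimmer, with signals of 17.2 to 38.6, gave 0.69 and 0.39, so no single direction can be read for EPC1.

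KAT5, which encodes the acetyltransferase TIP60, had 177.8 with both knockdowns, against 158.5 with p53 shRNA, and 146.1 with Pontin siRNA, against 129.0 with control shRNA. The ratios were 0.17 and 0.18, and the signal on the Pontin siRNA array lay between those of the arrays without the siRNA. Other, dimmer KAT5 probe sets gave -0.11 and 0.33, and -0.38 and 0.01, so no single direction can be read for KAT5. EP400, the SWI2/SNF2-type ATPase gene of the complex, had 128.6 with both knockdowns, against 188.7 with p53 shRNA, and 153.5 with Pontin siRNA, against 177.7 with control shRNA. That is -0.55 and -0.21 on its brightest probe set. Another bright EP400 probe set gave the opposite sign, at 0.45 and 0.67, so EP400 has no single direction here. MBTD1, an MBT-domain reader of methylated histone H4, was higher on the brightest probe set, with 626.1 and 532.0 in p53 shRNA cells with and without the siRNA, and with 591.0 and 382.2 in control shRNA cells. Its ratios were 0.23 and 0.63, so 1 pair passed 1.5-fold. Its next brightest probe set gave 0.44 and 1.07, and its dimmest 0.24 and -0.44.

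The remaining TIP60 genes had ratios between -0.26 and 0.22. The PHD-finger gene ING3, whose product reads trimethylated histone H3, was at -0.11 and -0.26. The paralogs MORF4L1 and MORF4L2, chromodomain (MRG15) and MRG-domain (MRGX) subunit genes, were at -0.14 and -0.18 and at -0.12 and -0.26, and MRGBP, which encodes their binding partner, at 0.22 and 0.01. MORF4L1 has near-identical copies in the genome that a probe set could share. Of its other probe sets, the brighter gave 0.00 and 0.07 and the dimmer -0.89 and -0.49. The bromodomain gene BRD8 was at -0.01 and 0.07, and MEAF6, whose product is shared with the MYST acetyltransferase complexes, at -0.05 and -0.06.

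Of the 12 INO80 genes other than the shared ACTL6A, 4 were below 0 in both pairs and 2 above, with a median of -0.02, and 0 were called. INO80, the ATPase, had 309.0 with both knockdowns, against 363.2 with p53 shRNA, and 317.5 with Pontin siRNA, against 296.6 with control shRNA. The ratios of -0.23 and 0.10 had opposite signs, and the arrays with the siRNA lay between those without it. INO80B, a PAPA-1 subunit gene, had the highest mean ratio of the 32 genes. It had 75.9 with both knockdowns, against 39.7 with p53 shRNA, and 57.4 with Pontin siRNA, against 43.7 with control shRNA, ratios of 0.93 and 0.39. The siRNA arrays were both above the others, but the signals lie below the bright level and 1 pair did not reach 1.5-fold.

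MCRS1, a forkhead-associated-domain subunit gene shared with the NSL complex, turned its sign between pairs, with 78.6 with both knockdowns, against 48.1 with p53 shRNA, and 50.9 with Pontin siRNA, against 62.7 with control shRNA (0.71 and -0.30). INO80C was at -0.18 and -0.39, but its other, dimmer probe set gave 0.00 and 0.36. NFRKB, whose product binds and holds UCHL5 inactive, was at -0.01 and -0.47. Its next brightest probe set gave 0.03 and 0.34, so neither gene had a single direction. The actin-related protein genes ACTR5 and ACTR8 were at -0.10 and -0.09 and at -0.29 and 0.03. UCHL5, a deubiquitinase gene also used by the proteasome, was at -0.02 and -0.11. YY1 was at 0.10 and -0.03, TFPT at 0.06 and -0.01, INO80D at 0.03 and 0.07, and INO80E at 0.00 and 0.09.

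H2AZ1 and H2AZ2 are separate genes for near-identical proteins. H2AZ1 had 7510.3 with both knockdowns, against 7202 with p53 shRNA, and 6818 with Pontin siRNA, against 6847 with control shRNA, ratios of 0.06 and -0.01. H2AZ2 had 4227 with both knockdowns, against 3926 with p53 shRNA, and 4305 with Pontin siRNA, against 3911 with control shRNA. Its ratios were 0.11 and 0.14, with both siRNA arrays above the others, and over its 4 probe sets the mean ratio ran from -0.08 to 0.30. The other H2AZ1 probe set was at 0.19 and 0.00. ANP32E, which encodes an H2A.Z removal chaperone, was at -0.04 and 0.03.

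**Figure D2:**
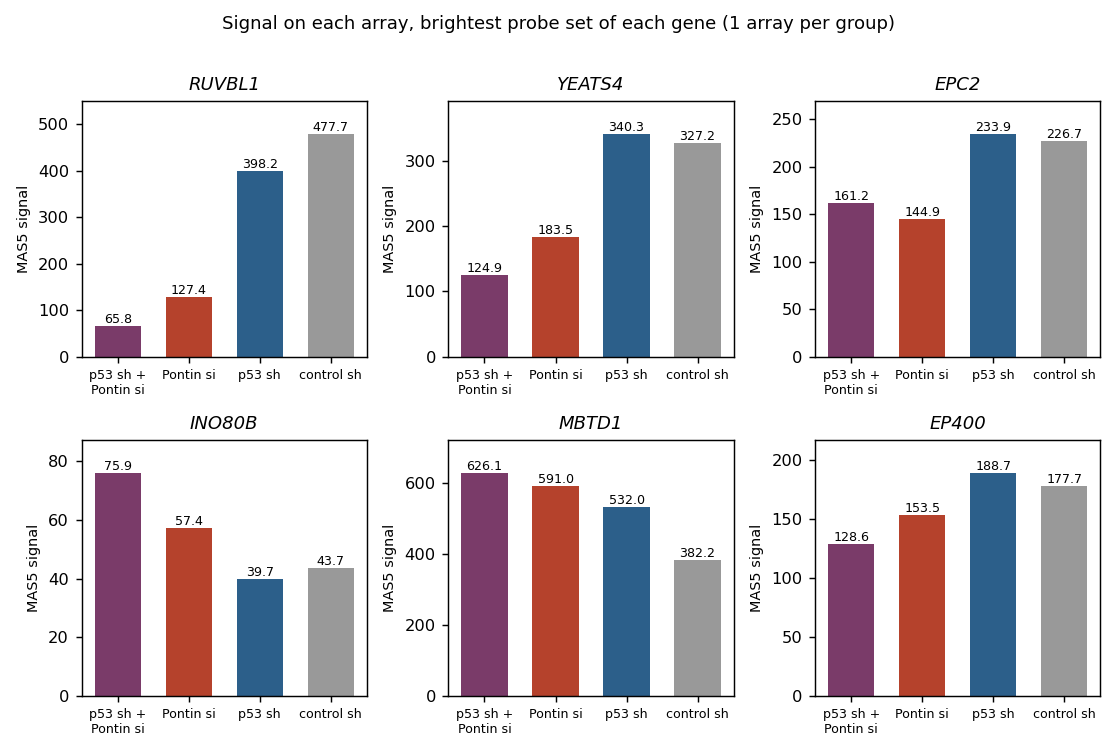
MAS5 signal on each of the 4 arrays, 1 per group, for RUVBL1 and 5 members on their brightest probe sets, with bars from 0 and the value above each bar. RUVBL1, YEATS4 and EPC2 are lower on both arrays with Pontin siRNA than on both without it, INO80B is higher on both, EP400 is lowest with both knockdowns (128.6), and MBTD1 is lowest with control shRNA (382.2).

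Probe sets of one gene often disagreed at this size of difference. The members had 81 single-symbol probe sets, of which 74 reached the level for genes kept. Of the 21 members with more than 1 such probe set, 6 had the same sign of the mean Pontin ratio on all of them and 15 had both signs. Of the 74 probe sets, 1 was called lower, that of YEATS4, and 2 were called higher, both of low signal. They were the dimmest of YY1, with signals of 9.9 to 30.9 and ratios of 1.13 and 1.53, and the dimmest of NFRKB, with 24.4 to 49.2 and ratios of 0.83 and 0.62. The other YY1 probe sets gave mean ratios of -0.27 to 0.04.

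**Figure D3:**
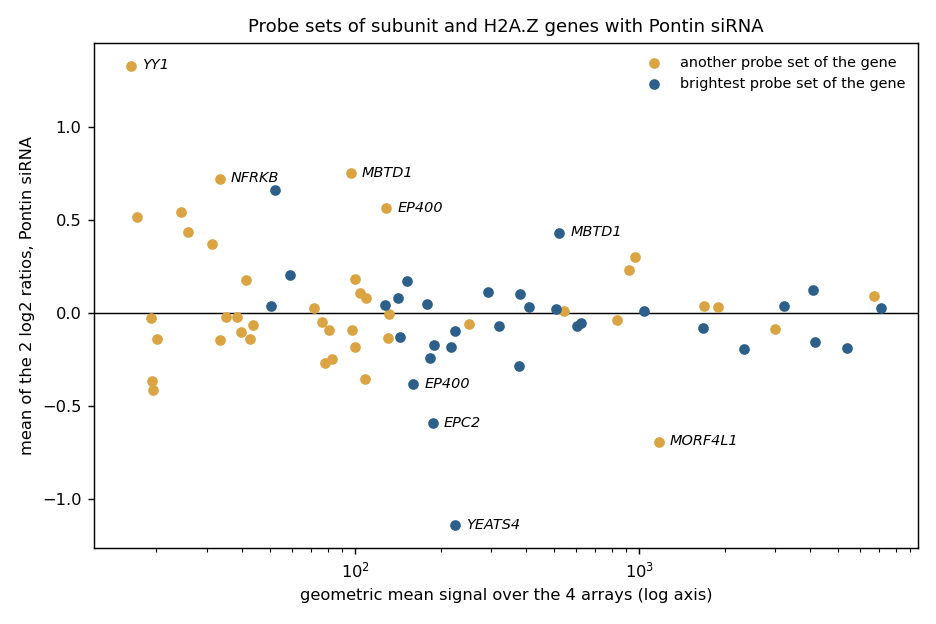
Mean of the 2 log2 ratios with Pontin siRNA (vertical) against the geometric mean signal over the 4 arrays (horizontal, log axis) for the 74 probe sets of member genes that reached the level for genes kept. Blue points are the brightest probe set of each gene and yellow points its other probe sets. YEATS4, at -1.14, is the lowest point, and the highest, a YY1 probe set at 1.33, lies at the low end of signal.

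Chromatin remodellers that do not contain Pontin were set beside the members, as SWI/SNF, ISWI and CHD subunit genes. Of 56 such genes, 52 were kept, 0 were called lower and 1 higher. The called gene was DPF3, which encodes a SWI/SNF reader of histone marks, with 24.5 with both knockdowns, against 14.4 with p53 shRNA, and 32.2 with Pontin siRNA, against 17.0 with control shRNA, far below the bright level. Their median mean ratio was 0.07, against -0.02 for the members, and 24 of 52 were above 0 in both pairs and 7 below. Over all genes kept, 33.9% were above and 32% below. Of 4 other MYST acetyltransferase genes (KAT6A, KAT6B, KAT7 and KAT8), 2 were below 0 in both pairs, 0 were called and the median was -0.07. Of 5 genes for other H2A variants and the H2A.Z chaperone, 4 were kept, 0 were called and the median was 0.05. The differences between these lists were not tested.

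**Figure D4:**
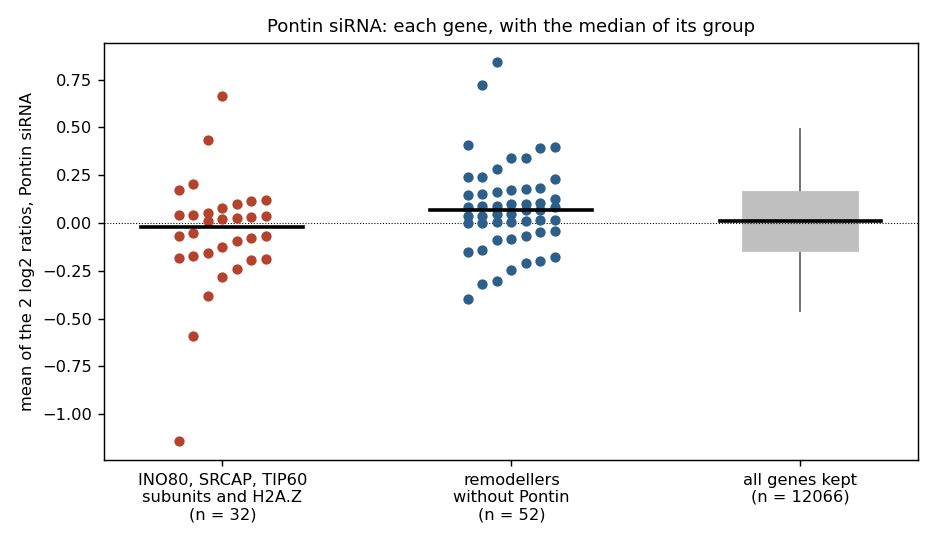
Mean of the 2 log2 ratios with Pontin siRNA for each of the 32 members, each of the 52 remodeller genes without Pontin that were kept, and all 12066 genes kept, with a black bar at each median (-0.02, 0.07 and 0.01). For all genes the grey box spans the 25th to 75th percentile (-0.15 to 0.16) and the line the 5th to 95th (-0.46 to 0.49). Among the members, YEATS4 and EPC2 are below that line and INO80B is above it. Among the remodellers, DPF3 (0.84) and CHD7 (0.72) are above it.

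For p53 shRNA, pairs of ratios are given for Pontin siRNA cells and then for control shRNA cells. These comparisons use the same 4 arrays as those for Pontin siRNA, including the shared control array. None of the 32 members was called, 0 higher and 0 lower, where 1.38% of genes kept were called higher and 0.862% lower. The members' median was 0.04, against 0.00 over all genes kept. Above 0 in both pairs were 13 members (30.6% of all genes kept were) and below 0 in both were 6 (32.2% of all), with 20 members within 0.2 of 0 in both pairs.

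The highest mean ratio belonged to ACTR8, an INO80 gene, which had 153.6 with both knockdowns, against 123.7 with Pontin siRNA, and 187.2 with p53 shRNA, against 121.1 with control shRNA. Both p53 shRNA arrays were above both others, at 0.31 and 0.63, but the other ACTR8 probe set gave 0.17 and 0.06. SRCAP was at 0.11 and 0.60, and 3 other SRCAP probe sets, all dimmer, did not share a sign. KAT5 was at 0.28 and 0.30, and its 2 other probe sets gave means of 0.05 and -0.22. MBTD1 was at 0.08 and 0.48, and with control shRNA it had the lowest of its 4 signals. H2AZ1 was at 0.14 and 0.07 and H2AZ2 at -0.03 and 0.01. At the other end, YEATS4 was at -0.56 and 0.06 and UCHL5 at -0.16 and -0.25. Other UCHL5 probe sets at the level for genes kept gave -0.10 and -0.06, and 0.16 and 0.03. All other members had mean ratios from -0.14 (DMAP1) to 0.22 (NFRKB). In p53 shRNA over control shRNA alone, ACTR8 and SRCAP were at least 1.5-fold higher (5.03% of genes kept were) and 0 members were that much lower (3.77% of genes kept).

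**Figure D5:**
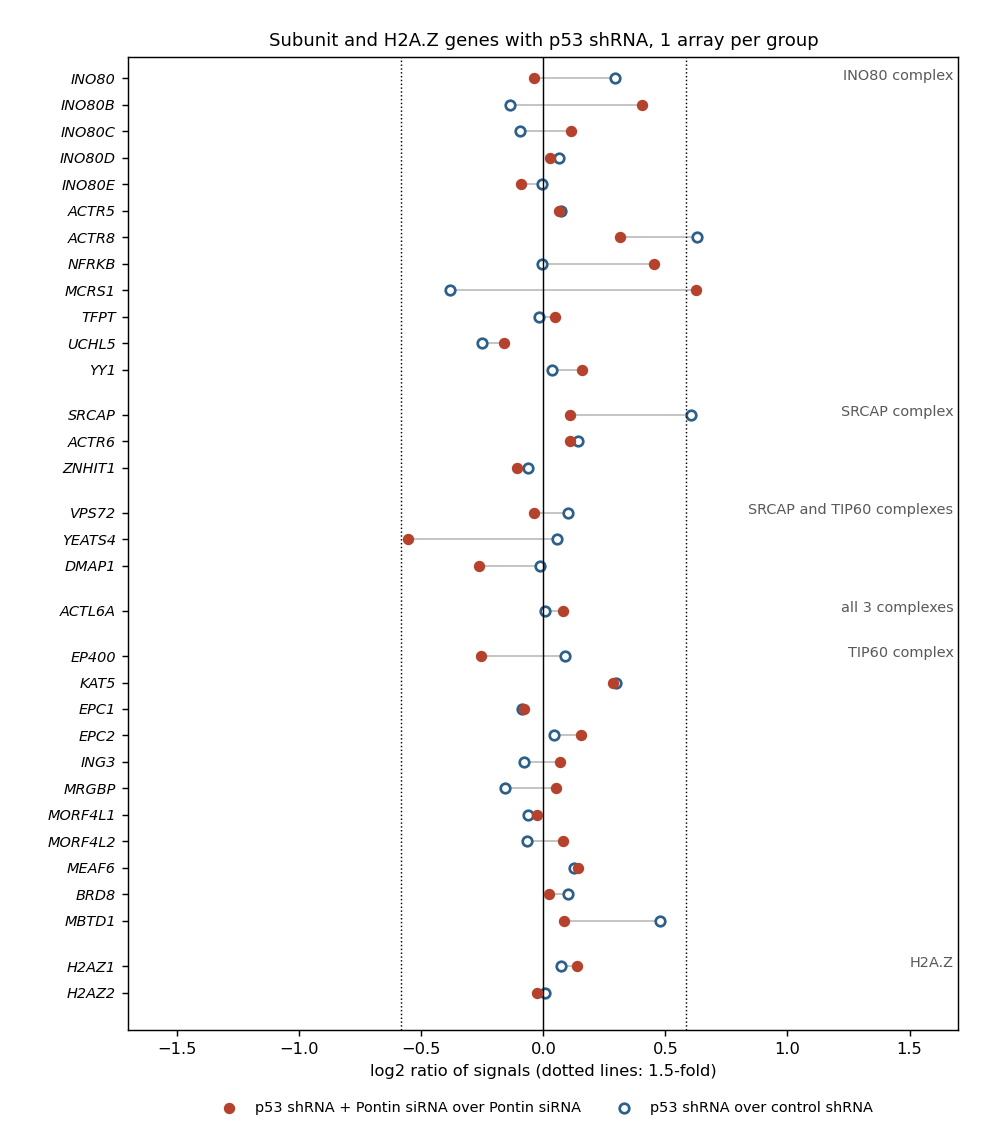
Log2 ratio of MAS5 signals with p53 shRNA for the same 32 genes. Filled points are both knockdowns over Pontin siRNA, open points are p53 shRNA over control shRNA, and dotted lines mark 1.5-fold. No gene has both points beyond the same line, and ACTR8, at 0.31 and 0.63, has the highest mean.

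With both knockdowns over control shRNA, 2 members were at least 1.5-fold higher and 1 lower, where 7.49% of genes kept were higher and 5.74% lower. INO80B was at 0.80 and MBTD1 at 0.71, and YEATS4 at -1.39. On their brightest probe sets, EPC2 was at -0.49, EP400 at -0.47 and KAT5 at 0.46. The other EP400 probe sets at the level for genes kept were at 0.71 and 0.01. Those of KAT5 were at 0.16 and -0.41, so neither EP400 nor KAT5 had a single direction. The median over the 32 members was 0.02. A departure from additive log2 effects of at least 1.5-fold was seen for 2 members, MCRS1 at 1.01 and YEATS4 at -0.61, where 13.1% of genes kept and 2.6% of bright genes departed that far. MBTD1, at 0.63 with Pontin siRNA alone and 0.48 with p53 shRNA alone, departed by -0.39.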

How the data were processed

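RNA from 4 SK-BR-3 cultures was measured on 1 Affymetrix array each, and groups were taken from the sample titles. The authors deposited MAS5 intensity values, a linear signal per probe set, per the submitters' processing notes, which give no version. With 2% trimmed at each end, every array's mean signal was 150.02, so the authors had scaled the arrays to a common level. No scanner files or detection calls were used here, and the number of arrays limits the precision.

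Of 54675 probe sets, 41097 carried 1 gene symbol in the platform annotation, 1801 several and 11777 none listed. Symbols were updated through Entrez identifiers, which matched for 41043. Only probe sets with 1 symbol were used, and 62 control probe sets were left out. Signals were taken to log2 with no pseudocount and no further normalization, and the 14 signals of 0 were set to 0.1. Each gene was represented by its brightest probe set. Each knockdown was measured in 2 pairs without a shared array, and a call needed at least 1.5-fold with the same sign in both. No test was the main result, because each group had 1 array. The alternatives were quantile and cyclic loess normalization (limma 3.58.1, R 4.3.3), median centring, a pseudocount of 16, other signal filters, probe set choices and folds, and limma's additive fit over the pairs, with Benjamini-Hochberg adjusted p. The working of the call was checked on simulated data with equal effects in both pairs. That check gives no error rate for these arrays.

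The members and lists were chosen with earlier results of these data known. All 32 members are named. Of the related lists, RUVBL1, RUVBL2, TRRAP, ANP32E and genes called for either knockdown are named with values. The other MYST genes are named only as a list, and CHD7 only in a figure caption. Of the marker lists, GATA3 was the 1 marker among genes kept that was called for a knockdown, and it and the other markers given were chosen after their values were seen.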

Additional observations from a re-analysis of the deposited data

Results flagged for a closer look

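The effect of each knockdown on MCRS1 had opposite signs in the 2 cell backgrounds, with a departure from additive log2 effects of 1.01. Its signals were 78.6 with both knockdowns, 50.9 with Pontin siRNA, 48.1 with p53 shRNA and 62.7 with control shRNA, all below the bright level and from the gene's single probe set. The highest was on the array with both knockdowns, which stood apart in its median signal. Departures of at least 1.5-fold were seen for 1577 of 12066 genes kept, of which only 201 were among the 7744 bright genes. For YEATS4 the p53 shRNA ratio was -0.56 in Pontin siRNA cells and 0.06 in control shRNA cells, a departure of -0.61. RUVBL1 departed by -0.69. With 1 array per group these differences were not tested.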

How the results depend on the processing

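YEATS4 was called lower with Pontin siRNA under all 8 alternatives of normalization, pseudocount, filter and probe set choice, with a mean log2 ratio of -1.14 to -1.06, and 0 members were called for p53 shRNA under any of them. Because YEATS4 has 1 probe set, which is bright, the filter and probe set alternatives could not change its value. For YEATS4 only the normalizations and the pseudocount bear on the call. With the mean over probe sets BRD8 was called higher as well (mean 1.14, a count of 1), which rests on a BRD8 probe set with signals of 0.7 to 8.9. At 1.3-fold in both pairs the Pontin siRNA counts were 2 lower and 1 higher (EPC2 and YEATS4 lower, INO80B higher), and at 2-fold 0 were lower. Shares over all genes are given only at 1.5-fold, so the counts at these other folds have no background beside them. Limma's additive fit, which takes the pairs as replicates with 1 residual degree of freedom, gave 0 members at an adjusted p under 0.05 for either knockdown, the lowest adjusted p being 0.337 for Pontin siRNA and 0.411 for p53 shRNA. At an unadjusted p under 0.05 it gave 2 members lower and 1 higher for Pontin siRNA (9.38% of members, against 14.4% of genes kept) and 2 higher and 0 lower for p53 shRNA (6.25%, against 11.5%). Without the array with both knockdowns, an alternative chosen after seeing the data, 1 member was higher and 2 were lower for Pontin siRNA. Of genes kept, 4.25% were higher and 3.89% lower in that comparison. For p53 shRNA 2 members were higher and 0 lower, where 5.03% of genes kept were higher and 3.77% lower. The Pontin siRNA median of -0.02 was -0.034 after quantile and -0.035 after cyclic loess normalization, where all genes had -0.006 and -0.003. Among bright genes the members' median was -0.067, against -0.003 for all bright genes. Without cross-hybridizing probe set types (23 members left) it was -0.037, against 0.004 for all genes. With the mean over probe sets it was 0.041, against 0.037 for all genes. DPF3 was not called after quantile (0.67) or cyclic loess normalization (0.70) or with the pseudocount (0.48). The causes of these differences were not tested. No paired analysis was possible because each group has 1 array and the labels give no replicate numbers to use as a block. The pairs of the additive fit are matched by the other knockdown. Signals below the bright level limit INO80B, MCRS1 and SRCAP.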

Other observations

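Probe sets that carry several gene symbols were outside the comparisons. For INO80B, 3 such probe sets also name the readthrough gene INO80B-WBP1 or its neighbour WBP1. Their mean log2 ratios with Pontin siRNA were 0.87, 0.84 and 0.19, where the single-symbol probe set had 0.66. Each of the 3 was above 0 in both pairs, as were 33.9% of genes kept. Their signals were 22.3 to 54.5, 13.5 to 37.3 and 127.0 to 173.1. The brightest of them was at 0.08 and 0.31. For SRCAP, 2 probe sets shared with TMEM265 had mean ratios of -0.13 and -0.21 with Pontin siRNA, against 0.04 on the single-symbol probe set. The first was at -0.11 and -0.14, but the second had opposite signs, at -0.58 and 0.16.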
